A study of Mus musculus with 12 samples.

Results

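Immediate early genes are transcribed within minutes of a stimulus without new protein synthesis, mostly from promoters already occupied by serum response factor with its ternary complex partners or by CREB, and many encode unstable transcription factors or the phosphatases and mRNA decay factors that end the response. Heat shock genes encode chaperones, and heat shock factor raises them when proteins unfold. Both sets are widely known to respond to the handling of living tissue as well as to signals within it.

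The 39 genes described here were chosen by name: 33 immediate early or closely related early response genes and 6 heat shock genes, each found through the gene name that the scanner files give a probe. Of these, 38 had a probe on the array (46 probes in all, of 39429) and 35 could be tested among 17778 genes, 30 immediate early and 5 heat shock genes. Hspa1b had no probe of its own name. Nr4a3 was well above background on no array and Egr3 on 1 array, so neither was tested, and the only Zfp36 probe has a GC content of 21.7%, below the limit of 30% used here, and is set apart.

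The levels were measured in GMP (granulocyte-monocyte progenitors, from which neutrophils and monocytes descend) on 12 one-colour Agilent arrays. Wild-type GMP (wt, 4 arrays) carried intact Runx1 alleles, genotype Runx1+/+-Tg(vav-Cre), and Runx1-deleted GMP (ko, 4 arrays) carried floxed alleles, genotype Runx1fl/fl-Tg(vav-Cre), so both groups share the transgene in which the vav promoter drives Cre in blood cells. For the other groups, Runx1fl/fl-Tg(vav-Cre) marrow was collected 3 days after 5-fluorouracil at 150 mg/kg, infected with a MIG retrovirus that expressed GFP together with ERt2, a tamoxifen-responsive hormone-binding domain (ERt2, 2 arrays), or RUNX1 fused to that domain (RUNX1-ERt2, 2 arrays), and transplanted into lethally irradiated mice. Tamoxifen at 49.5 µg/g was given on 3 days from week 6, and viable GFP-positive GMP were sorted 24 h later; the labels name tamoxifen for all 4 of these samples, while the protocol text names it for a part of the mice. Age and strain are not given in the sources used here, nor is it said that each array stands for a separate animal, so p-values measure only how far these samples differ from each other, and that spread may be technical.

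A level is the log2 processed intensity minus the 75th percentile of its array, and a difference between levels of 1 is a 2-fold change; levels of different probes are not compared. Each array had 53.5% to 63.1% of its probes well above background, with median signals of 61.4 to 92.5 on the 8 wt and ko arrays and 40.2 to 54.4 on the 4 transplant arrays. All 10 GMP markers, such as Mpo, Elane and Kit, were well above background in every group. Slide 1 carried replicates 1 and 2 of both wt and ko, slide 2 their replicates 3 and 4, slide 3 the ERt2 group and slide 4 the RUNX1-ERt2 group, so that slide and group cannot be told apart in the transplanted samples. The level of the targeted gene, Runx1, was 1.71 ± 0.54 in wt and 3.40 ± 0.58 in ko (SD, n = 4 each), and 3.22 ± 0.11 and 2.13 ± 0.29 in the ERt2 and RUNX1-ERt2 groups (SD, n = 2 each). The sources used here do not say where its probe lies relative to the deleted part, so it does not check the deletion. In RNA from sorted cells, fewer cells of a type and less RNA per cell cannot be told apart.

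The promoters of the genes on which the results turn are shown as the 150 bases before the RefSeq transcription start (GRCm38.p6), 5′ to 3′ on the strand of the gene. Capitals mark letters that match a searched motif on either strand: the cAMP response element TGACGTCA or its shorter core TGACG (its reverse is CGTCA), the EGR site GCGGGGGCG and the heat shock unit pair GAANNTTC. Fos, Fosb, Dusp1 and Nr4a1 stand for the immediate early genes that varied together over arrays, Btg1 and Fosl2 for the members past the threshold in both Runx1 comparisons, and Hspa1a for the heat shock genes. The windows are chr12:85473740-85473889 on the plus strand for Fos, chr7:19310046-19310195 on the minus strand for Fosb, chr17:26508473-26508622 on the minus strand for Dusp1, chr15:101266696-101266845 on the plus strand for Nr4a1, chr10:96616851-96617000 on the plus strand for Btg1, chr5:32136322-32136471 on the plus strand for Fosl2 and chr17:34972157-34972306 on the minus strand for Hspa1a.
Fos: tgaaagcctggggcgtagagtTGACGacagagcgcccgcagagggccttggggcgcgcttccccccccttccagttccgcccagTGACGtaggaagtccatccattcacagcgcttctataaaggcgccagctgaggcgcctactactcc
Fosb: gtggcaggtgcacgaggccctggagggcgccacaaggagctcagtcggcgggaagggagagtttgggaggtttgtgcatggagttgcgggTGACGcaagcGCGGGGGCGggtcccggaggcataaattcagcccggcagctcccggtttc
Dusp1: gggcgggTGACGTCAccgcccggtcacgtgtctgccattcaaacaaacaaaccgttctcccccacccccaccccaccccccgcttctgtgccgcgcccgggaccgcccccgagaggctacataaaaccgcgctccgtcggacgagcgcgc
Nr4a1: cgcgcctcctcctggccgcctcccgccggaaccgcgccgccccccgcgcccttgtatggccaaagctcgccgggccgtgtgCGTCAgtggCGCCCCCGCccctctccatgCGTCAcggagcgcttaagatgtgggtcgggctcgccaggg
Btg1: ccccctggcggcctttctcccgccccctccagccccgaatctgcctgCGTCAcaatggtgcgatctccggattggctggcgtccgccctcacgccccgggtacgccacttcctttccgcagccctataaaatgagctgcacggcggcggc
Fosl2: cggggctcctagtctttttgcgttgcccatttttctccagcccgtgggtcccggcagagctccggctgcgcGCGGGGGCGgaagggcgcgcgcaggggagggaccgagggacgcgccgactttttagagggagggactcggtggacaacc
Hspa1a: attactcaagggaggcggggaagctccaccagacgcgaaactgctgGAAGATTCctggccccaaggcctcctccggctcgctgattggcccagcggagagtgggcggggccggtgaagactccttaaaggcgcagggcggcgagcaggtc

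Of the 39 genes, 33 matched the RefSeq promoter table, and matches were counted over the 250 bases before each start, a gene being counted once however many starts it has. The full cAMP response element, TGACGTCA, was found for Maff, Dusp1, Btg2 and Ppp1r15a, 4 of 33, against 1.77% of the 27025 genes in the table, and the core TGACG, which every full element also contains, for 17 of 33 against 19.8%. The EGR site was found for 7 members (Fosb, Fosl2, Klf2, Klf4, Nr4a1, Dusp2 and Zfp36) against 2.93%, and the CArG box, the site of serum response factor, for Egr2, Dusp5 and Zfp36 against 1.62%. A member not named for a motif may hold it outside the 250 bases searched, or may not have matched the table. The median GC content of the windows was 64.4% for the members and 52.4% for all genes in the table.

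The heat shock unit pair GAANNTTC was found for Hspa1a, Hspa1b, Jun and Fosl2, 4 members against 7.73%, and the longer element of 3 joined units for no member against 0.514%. The AP-1 site TGANTCA was in 0 of 33 windows against 7.82%, and TGTGGT, the core of the RUNX site, in 0 of 33 against 15.9%; this says only that these letters are not in these windows. The windows of Hspa1a and Hspa1b are alike in 247 of 250 bases.

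Within wt and within ko, immediate early genes moved up and down together from array to array. The Fos level, for the AP-1 subunit that is a textbook immediate early gene, read 2.04, 3.47, 4.43 and 3.00 on wt replicates 1 to 4 and 5.02, 2.69, 4.70 and 5.56 on ko replicates 1 to 4. Egr1, a zinc finger factor induced by growth factor signals, read 1.15, 3.36, 4.77 and 4.72 in wt and 4.27, 0.47, 5.14 and 6.58 in ko. For both genes wt replicate 1 was low within wt, ko replicate 2 was low and ko replicate 4 high within ko, and the groups overlapped.

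The same arrays stood at the ends for most of the list. Wt replicate 1 was the lowest of its group for 27 of the 30 immediate early genes tested, against 18.6% of all genes, and wt replicate 3 the highest for 24, against 23.9%. Ko replicate 2 was the lowest for 26, against 31.3% of all genes, and ko replicate 4 the highest for 27, against 32.5%. The median deviation from the group mean over these 30 genes was −1.10, −0.07, 0.95 and 0.26 on wt replicates 1 to 4 and −0.09, −1.68, 0.24 and 1.43 on ko replicates 1 to 4, while over all genes no array of these groups deviated by more than 0.03 in size. Genes of one array share its RNA, so these counts describe the arrays and are not independent observations.

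**Figure D1:**
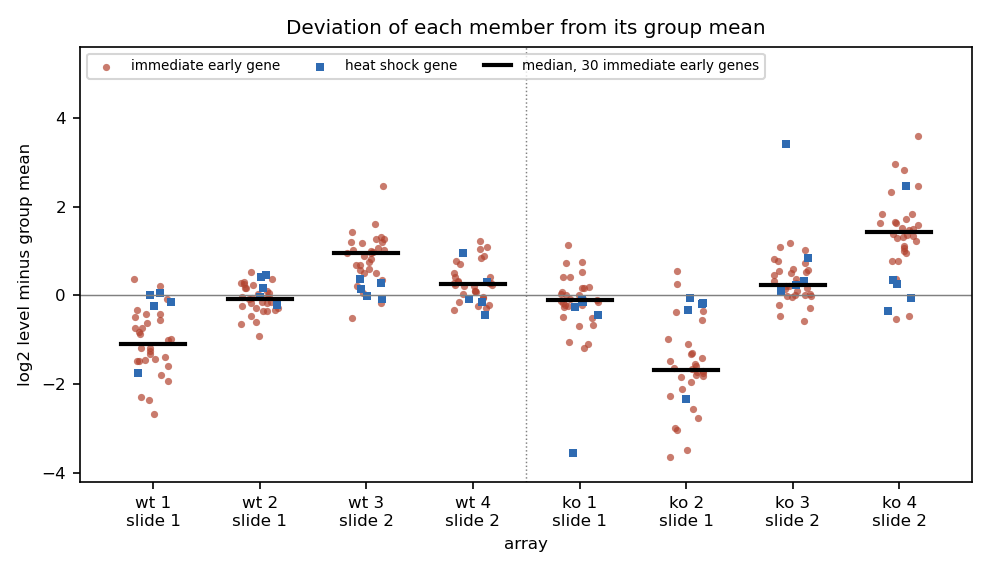
Deviation of each of 35 genes (30 immediate early genes as circles, 5 heat shock genes as squares) from its group mean on the 8 wt and ko arrays, in log2 units, with the median of the immediate early genes as a bar. The bars of wt replicate 1 (−1.10) and ko replicate 2 (−1.68) lie lowest and those of wt replicate 3 (0.95) and ko replicate 4 (1.43) highest.

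The exceptions in this order were Fosl2, Myc and Btg1 at the low end of wt and Fosl2, Myc, Dusp5 and Gadd45b at the low end of ko. At the high end they were Fosl2, Nr4a1, Nr4a2, Myc, Rhob and Btg1 in wt and Fosl2, Myc and Gadd45a in ko. The median range over the 4 arrays of a group was 2.07 in wt and 3.05 in ko for immediate early genes, against 0.49 and 0.51 for all genes, and 0.53 and 0.61 for the 5 heat shock genes. A range above 2 was found for 16 of the 35 members in wt and 24 in ko, against 4.53% and 4.88% of all genes. In ko, Atf3, a stress-induced bZIP factor, spanned 96.0-fold and Egr1 spanned 69.3-fold between its lowest and highest array, while Myc, the growth factor-induced bHLH factor, spanned 1.65-fold and Btg1 1.66-fold.

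Other measures of these arrays did not all run in that order. The median signal was 83.3 on wt replicate 1 and 92.5 on ko replicate 2, the highest of their groups, and 66.1 on wt replicate 3 and 70.2 on ko replicate 4. The summed linear signal of 10 late neutrophil markers, relative to the 75th percentile, was 136 on wt replicate 1, 283 on wt replicate 3, 71.8 on ko replicate 2 and 137 on ko replicate 4, and highest within ko on replicate 3, at 282. Slide 1 held both low arrays and slide 2 both high ones. The median deviation was −1.10 and −0.07 on the wt arrays and −0.09 and −1.68 on the ko arrays of slide 1. On slide 2 it was 0.95 and 0.26 on the wt arrays and 0.24 and 1.43 on the ko arrays. The part of slide, signal or neutrophil transcripts in these swings was not tested.

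The first comparison asked which of these genes differ when Runx1 is deleted. Of 35 tested, Btg1, Gadd45g and Rhob were higher in ko and Fosl2 was lower; over all genes 11.5% were higher and 13.7% lower at the same threshold (limma, Benjamini-Hochberg adjusted p under 0.05), so the share of members called was no larger than the background. The difference was above 0 for 25 of 35 members, against 44.3% of all genes, with a median of 0.72 against −0.05. Most of these differences were small beside the swings between arrays.

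Btg1 encodes an antiproliferative protein that works with the CCR4-NOT deadenylase to shorten mRNA tails. Its level was 2.62, 2.52, 2.74 and 2.90 in wt and 3.59, 3.22, 3.55 and 3.95 in ko, so every ko array lay above every wt array, as did 10% of all genes. The difference was 0.88 ± 0.11 (SE; limma adjusted p = 0.00095), a 1.85-fold rise, with 0.84 on slide 1 and 0.93 on slide 2. Btg1 was among the steadiest members within a group and still differed between the groups.

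A second, dimmer Btg1 probe behaved like the bulk of the list. The brighter probe lies at chr10:96082071-96082130 and the dimmer at chr10:96085358-96085417 (both mm9, plus strand, the coordinates of the files). The dimmer probe read −0.63, 0.60, 1.26 and 1.93 in wt and 2.06, −0.41, 1.73 and 2.54 in ko, with overlapping groups and a difference of 0.69. With both probes averaged, Btg1 did not pass (adjusted p = 0.134).

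Gadd45g, a stress sensor that binds and activates the MAP kinase kinase kinase MTK1, had the largest rise. It read 0.07, 0.34, 1.88 and 1.44 in wt and 1.93, 1.82, 4.29 and 4.40 in ko. Both ko arrays exceeded both wt arrays within each slide, and across slides 1 wt array lay just above the lowest ko array. The difference was 2.18 ± 0.27 (adjusted p = 0.00072), 4.53-fold, with 1.67 (adjusted p = 0.0148) on slide 1 and 2.69 (adjusted p = 0.00216) on slide 2, and it passed under all 20 alternatives tried (highest adjusted p = 0.0467, without the slide term). Taken slide by slide, Btg1 and Gadd45g were the members called on each slide, both higher, against 6% of all genes higher and 4.71% lower on slide 1 and 5.28% and 5.73% on slide 2.

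Rhob, an immediate early small GTPase of endosomes, read −2.27, −2.003, −0.09 and −4.7e-05 in wt and −0.68, −1.43, 0.57 and 1.48 in ko. The groups overlapped across slides but not within a slide. The difference was 1.08 ± 0.28 (adjusted p = 0.0230; 1.09 on slide 1 and 1.07 on slide 2), and a second probe gave 1.28. The call ended without wt replicate 1, 2 or 3 or ko replicate 1 or 4 (highest adjusted p = 0.0718, without ko replicate 1), with normexp background correction (0.0655) and without the slide term (0.344).

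Fosl2, the AP-1 subunit Fra-2 and a later-rising member of the family, was the member that fell. It read −0.12, −0.14, −1.01 and −0.73 in wt and −0.45, −0.32, −1.33 and −1.41 in ko, lower on slide 2 in both groups and lower in ko within each slide. The difference was −0.38 ± 0.10 (adjusted p = 0.0246; −0.25 and −0.50 on the slides). It did not pass with the array median (adjusted p = 0.0613), with the series matrix (0.0709), with no filter on dim probes (0.0610), without the slide term (0.425), with a block on replicate number (0.0604) or without wt replicate 1 (0.0538), ko replicate 1 (0.0661) or ko replicate 4 (0.0780).

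**Figure D2:**
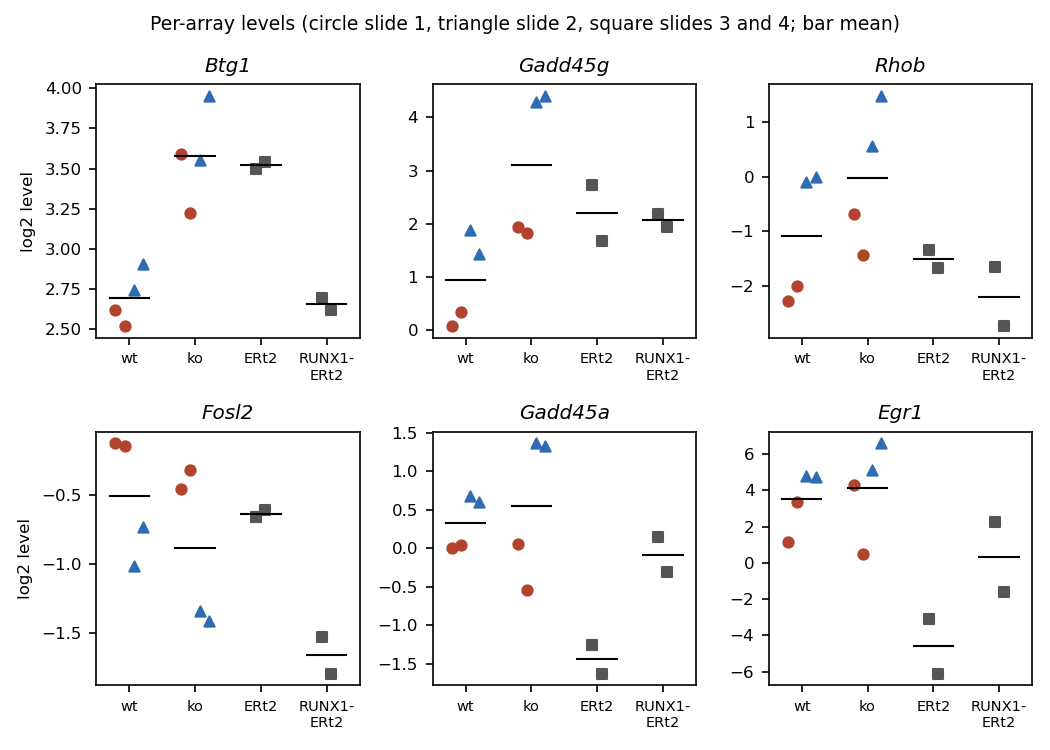
Log2 levels of Btg1, Gadd45g, Rhob, Fosl2, Gadd45a and Egr1 on each array by group, circles for slide 1, triangles for slide 2, squares for the slides of the transplanted groups, bars for group means; each panel has its own axis. Btg1 in ko (3.22 to 3.95) lies above wt (2.52 to 2.90), while Egr1 ranges from 0.47 to 6.58 within ko.

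None of the other AP-1 genes passed. The difference between ko and wt was 1.26 ± 0.88 for Fos (adjusted p = 0.334), 1.11 ± 1.14 for Fosb, 0.86 ± 0.55 for Jun, 1.13 ± 0.51 for Junb and 2.03 ± 0.90 for Atf3 (adjusted p = 0.134), the last well above background on 3 of 4 wt arrays. The 95% interval for Fos ran from −0.73 to 3.24, which leaves room for no difference as well as for a large one.

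Among EGR and KLF factors, which are zinc finger proteins, and NR4A receptors, which are nuclear receptors controlled mainly by their own induction, no member passed. Egr1 differed by 0.62 ± 1.13 (adjusted p = 0.731), and Klf2, Klf4, Klf6 and Egr2 by −0.25 to 0.92. Nr4a1, which is induced by antigen receptor and growth factor signals, read −0.97, 1.48, 1.52 and 1.80 in wt and 3.15, −1.47, 2.01 and 4.33 in ko. The groups overlapped, and the difference was 1.05 ± 0.97 (adjusted p = 0.471).

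The MAP kinase phosphatases, which dephosphorylate ERK, p38 or JNK and so brake the pathway that induces them, did not pass either. Dusp1 read 0.02, 1.37, 2.62 and 1.62 in wt and 2.41, 0.69, 3.01 and 3.90 in ko. Its groups overlapped, with a difference of 1.10 ± 0.57 (adjusted p = 0.193), and Dusp2, Dusp5 and Dusp6 differed by at most 0.66. Btg2, the paralog of Btg1, at 1.46 ± 0.50 (adjusted p = 0.0595), and Ppp1r15a, the stress-induced regulatory subunit that directs dephosphorylation of eIF2 alpha, at 1.23 ± 0.46 (adjusted p = 0.0811), came close to the threshold.

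Leaving out ko replicate 2 moved the count most, to 9 members higher: Btg1, Btg2, Gadd45g, Ier5, Jund, Klf2, Nr4a2, Ppp1r15a and Rhob. At the same time the genes higher in ko over the whole array went down from 2048 to 1554. Without any other single array 2 or 3 members were higher, Btg1 and Gadd45g among them each time, and 0 to 4 members were lower, the 4 being Fosl2, Hsp90aa1, Hsph1 and Myc without ko replicate 3. None was lower without wt replicate 1 or ko replicate 1.

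The heat shock genes did not move as one with the immediate early genes. Hspa1a, the stress-inducible HSP70 gene, read −5.24, −3.09, −3.12 and −2.53 in wt and −6.88, −5.67, 0.08 and −0.87 in ko, where it was well above background on 3 of 4 arrays. On slide 1 both ko arrays lay below both wt arrays, and on slide 2 both lay above. The difference between ko and wt was −2.11 on slide 1 (adjusted p = 0.0908) and 2.43 on slide 2 (adjusted p = 0.0604), and the difference between the slides, 4.54 ± 0.97, did not pass over all genes (adjusted p = 0.285); 0.00562% of all genes passed that test. Because Hspa1a and Hspa1b are near-identical copies, the Hspa1a probe cannot be assigned to one of them with certainty, and no separate Hspa1b value is given.

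Hspa8, the constitutive HSP70 that folds proteins in unstressed cells, was steady. It read 6.67, 6.70, 7.04 and 7.20 in wt and 6.45, 6.54, 6.81 and 7.06 in ko, higher on slide 2 in both groups, with a difference of −0.19 ± 0.10 (adjusted p = 0.191). Hsp90aa1, the inducible HSP90, read 5.45, 5.56, 5.32 and 5.24 in wt and 4.79, 4.67, 5.19 and 4.81 in ko. All its ko arrays lay below all wt arrays, as did 13.1% of all genes, and the difference of −0.53 ± 0.18 missed the threshold (adjusted p = 0.0560). The HSP110 co-chaperone gene Hsph1 (−0.56 ± 0.31) and the HSP40 gene Dnajb1 (0.06 ± 0.10) did not pass.

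**Figure D3:**
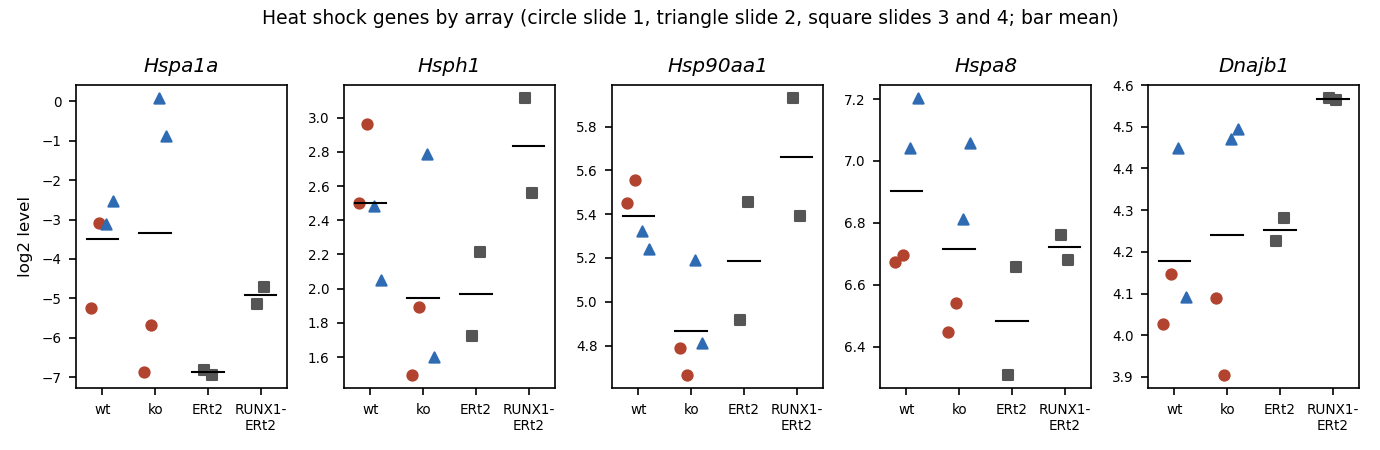
Log2 levels of the 5 tested heat shock genes on each array by group, circles for slide 1, triangles for slide 2, squares for the slides of the transplanted groups, bars for group means; each panel has its own axis. Hspa1a in ko splits by slide (−6.88 and −5.67 against 0.08 and −0.87), while Hspa8 stays between 6.31 and 7.20 on all arrays.

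Further lists of the same pathways were examined, beside 11.5% of all genes higher and 13.7% lower in ko (25.2% in all). The share called was 12% of the upstream factors, below that of all genes, and 38.5% of the further response genes. The lists were chosen with earlier results of these data known, so these shares describe the lists and are not a test of them. Of 25 upstream kinases and factors, 2 were higher and 1 lower in ko, the lower being Hsf2, a heat shock factor (−0.60 ± 0.17, adjusted p = 0.0342), and the higher the kinase genes Rps6ka5, whose product MSK1 phosphorylates CREB and histone H3 (0.40 ± 0.07), and Map2k6, which activates p38 (0.34 ± 0.10). Of 39 tested of 49 further response genes, 13 were higher and 2 lower, with a median of 0.36. Phlda1 rose by 2.63 ± 0.39 (adjusted p = 0.0020), Socs3, a feedback inhibitor of cytokine signalling, by 2.62 ± 0.42 and Gem, a small GTPase, by 2.32 ± 0.37, and without single arrays 10 to 12 of these genes were higher and 2 or 3 lower.

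These further response genes were not all free of the array swings. Phlda1 read −3.17, −1.89, 0.19 and −0.79 in wt and 0.25, −0.41, 2.00 and 3.02 in ko, with wt replicate 1 and ko replicate 2 lowest and wt replicate 3 and ko replicate 4 highest, as for Fos. Socs3 read −1.18, 0.23, 0.67 and −0.89 in wt and 2.80, 1.99, 1.99 and 2.52 in ko, and every ko array lay above every wt array. Il6, an inflammatory cytokine gene, fell in ko by 1.74 (SE 0.28, adjusted p = 0.0030).

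Of 25 tested of 26 further chaperones, none was higher and 10 were lower in ko, with a median of −0.31. They were led by Hspa2 (−0.92 ± 0.11, adjusted p = 0.00069) and the mitochondrial pair Hspd1 (−0.64 ± 0.18) and Hspe1 (−0.54 ± 0.17), which encode HSP60 and its co-chaperonin. The count lower was 1 with the array median in place of the 75th percentile or with series matrix values, and 2 with normexp background correction. It was 5 with no filter on dim probes, 6 with the replicate block or quantile normalization, and 8 to 11 with the other processing alternatives. Of single arrays, it was 2 without wt replicate 1 or 2 or ko replicate 1, 3 without ko replicate 2 or 4, and 7 to 11 without the others. In ko, the summed levels of GMP markers (434 to 564, against 635 to 889.7 in wt), of monocyte markers (67.7 to 87.8, against 105.1 to 118) and of T and NK cell markers (8.42 to 13.2, against 20.1 to 34.5) were also lower on all arrays. Those of 9 megakaryocyte markers (39.8 to 59.1, against 8.81 to 14.4) and of basophil and mast cell markers (37.0 to 63.8, against 24.6 to 28.6) were higher on all arrays. A linear sum is weighted to its brightest markers. Of 6 basophil and mast cell markers, 1 was called higher and 4 lower in ko, with a median difference of −2.09. Of 6 T and NK cell markers, 0 were called higher and 2 lower, with a median of 0.02. The part of cell composition in these results was not tested.

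The second comparison asked what an active RUNX1-ERt2 does in Runx1-deleted GMP, with ERt2 alone as the control. Of 35 members, Gadd45a was higher and Btg1 and Fosl2 were lower with RUNX1-ERt2, against 9.79% of all genes higher and 8.88% lower. The difference was above 0 for 24 of 35 members, against 49.7% of all genes, both RUNX1-ERt2 arrays lay above both ERt2 arrays for 15 members, against 28.7%, and below for 8, against 29.9%. Btg1 read 3.50 and 3.54 with ERt2 and 2.69 and 2.62 with RUNX1-ERt2, with no overlap, and the difference was −0.87 ± 0.16 (limma adjusted p = 0.0060). Both RUNX1-ERt2 values lay within the range of wt, and both ERt2 values within that of ko. The dimmer Btg1 probe differed by 0.46, in the other direction, and read −1.55 on both ERt2 arrays and 0.06 and −2.23 with RUNX1-ERt2.

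Fosl2 was lower here too. It read −0.66 and −0.61 with ERt2 and −1.52 and −1.79 with RUNX1-ERt2, and the difference was −1.02 ± 0.14 (adjusted p = 0.0013), which ended only without the slide term (0.143) among the alternatives tried. A second Fosl2 probe was not well above background on any transplant array. Fosl2 was lower both when Runx1 was deleted and when RUNX1-ERt2 was expressed.

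Gadd45a, a stress and DNA damage response gene, read −1.25 and −1.63 with ERt2 and 0.14 and −0.31 with RUNX1-ERt2. The groups did not overlap, and the difference was 1.36 ± 0.31 (adjusted p = 0.0158), a 2.56-fold rise. In wt it lay between 0.01 and 0.68 and in ko between −0.54 and 1.37. The call ended without ERt2 replicate 2 (0.0951), without RUNX1-ERt2 replicate 1 (0.0973) and without the slide term (0.166). Wherever 1 transplant array is left out, its group keeps 1 array, so the spread comes from the other groups and the lone array is assumed to vary as they do.

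Egr1 had the widest difference in this comparison, at 4.90 ± 1.60, and did not pass (adjusted p = 0.0635). It read −3.11 and −6.10 with ERt2, where it was well above background on 1 of 2 arrays, and 2.23 and −1.63 with RUNX1-ERt2, so the groups did not overlap. Fos read −1.07 and −2.50 with ERt2 and 1.45 and −2.51 with RUNX1-ERt2, with a difference of 1.26 ± 1.24. Without RUNX1-ERt2 replicate 2, Egr1 (6.83, adjusted p = 0.0375) and Fosb passed, and without replicate 1 the Fos difference was −0.72 and that of Dusp1 −0.43.

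Arrays of a transplanted group differed as well. Replicate 1 was above replicate 2 for 24 of 30 immediate early genes in the ERt2 group, against 40.9% of all genes, and for 24 of 30 in the RUNX1-ERt2 group, against 53.6%. Fosb, the partner of Jun in the AP-1 dimer, read 1.60 and −3.61 in the RUNX1-ERt2 group, 37.0-fold apart, and −3.68 and −4.40 with ERt2. Nr4a1 read −0.12 and −0.84 with ERt2 and −0.94 and −1.31 with RUNX1-ERt2, and Dusp1 −2.10 and −2.92 against −0.91 and −2.93. Neither passed.

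Heat shock genes were on the higher side with RUNX1-ERt2 in 5 of 5 cases, against 49.7% of all genes, and none was past the threshold. Hspa1a read −6.82 and −6.93 with ERt2, not well above background, and −5.15 and −4.71 with RUNX1-ERt2, and did not pass (adjusted p = 0.333). Measured against the lowest level that the ERt2 arrays could resolve, Hspa1a was at least 1.20-fold higher. Hspa8 read 6.31 and 6.66 against 6.76 and 6.68, with a difference of 0.24 ± 0.14 (adjusted p = 0.284).

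Of the wider lists, upstream factors were higher in 3 and lower in 3 of 25 cases with RUNX1-ERt2, further response genes in 4 and 3 of 39 and further chaperones in 2 and 0 of 25. The called shares were 24%, 17.9% and 8% of the lists, against 18.7% of all genes, so the first 2 lie near the share over all genes. Without single arrays the further response genes gave 2 to 4 higher and 0 to 2 lower, and the upstream factors 1 to 3 and 2 or 3. Hsf2 rose by 1.20 ± 0.25 (adjusted p = 0.0096) and Crem, a cAMP response element factor, by 1.06 ± 0.19, while Mapkapk2, a kinase activated by p38, fell by 0.85 (SE 0.20). Il6 and the phosphatase gene Dusp8 were not well above background with ERt2 and were at least 25.1-fold and at least 2.54-fold higher with RUNX1-ERt2. Sgk1, a serum- and glucocorticoid-induced kinase gene, fell by 1.53 (SE 0.39, adjusted p = 0.0254). Hspe1 rose by 0.88 ± 0.24 and Hspa4l by 0.83 ± 0.13.

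**Figure D4:**
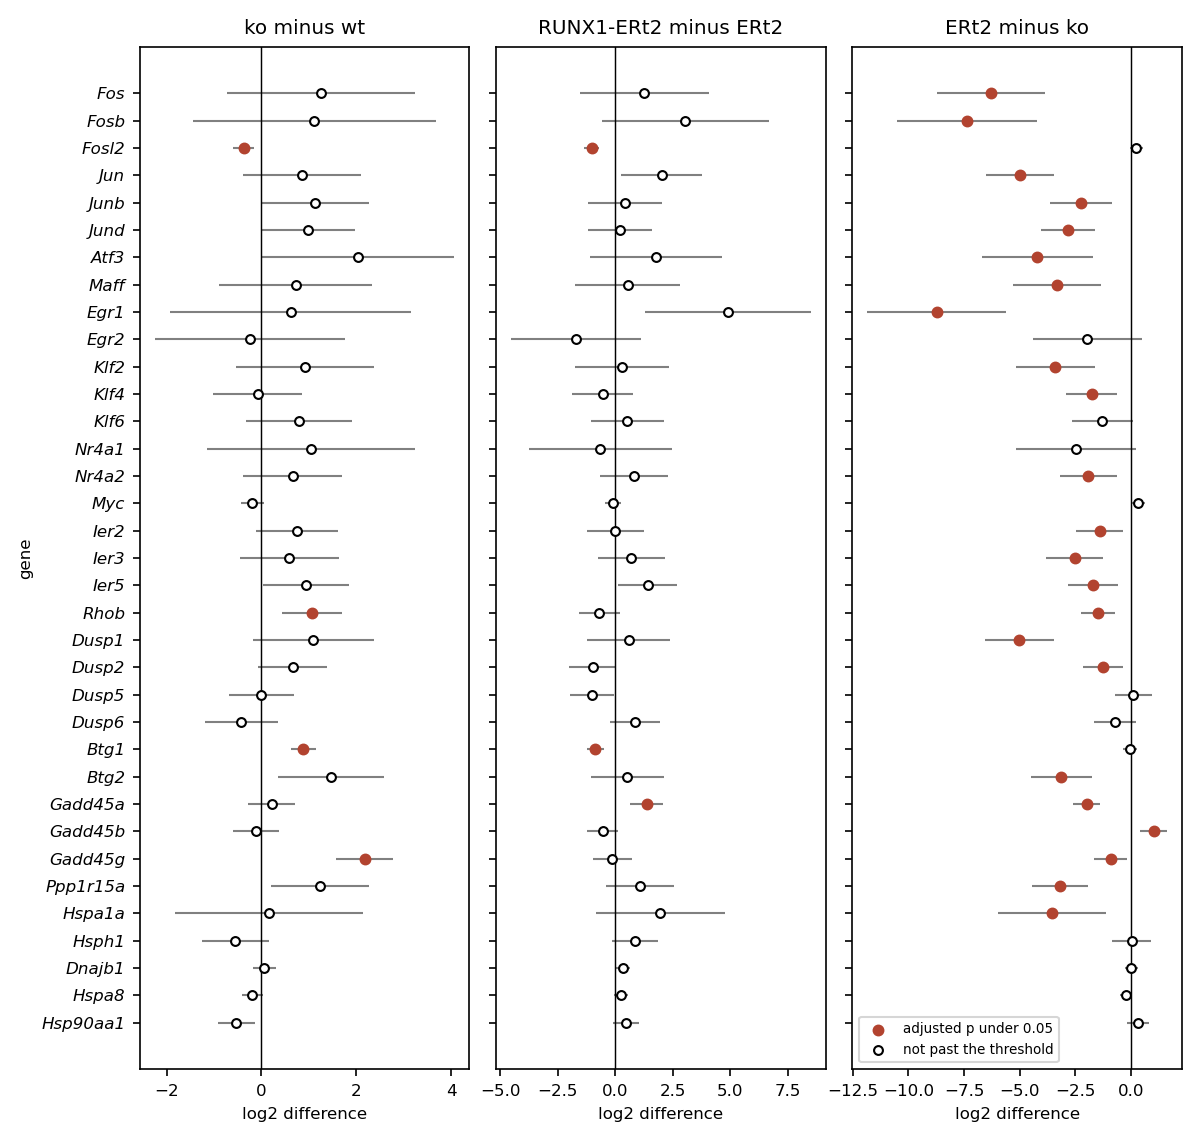
Log2 difference of each of 35 members (rows) in ko minus wt, RUNX1-ERt2 minus ERt2 and ERt2 minus ko (panels, each with its own axis), with 95% confidence intervals from the limma fit as lines and members with an adjusted p under 0.05 filled. The first panel has 4 filled points, the second 3 and the third 23.

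The difference between these effects was tested directly, since the comparisons share no array. The effect of RUNX1-ERt2 minus the effect of deletion was −1.75 ± 0.20 for Btg1 (adjusted p = 0.00032), −2.32 ± 0.46 for Gadd45g (adjusted p = 0.0065), −1.77 ± 0.49 for Rhob (adjusted p = 0.0270) and −0.64 ± 0.17 for Fosl2 (adjusted p = 0.0250), and 1.00 ± 0.30 for Hsp90aa1 (adjusted p = 0.0398). These are 4 members below and 1 above, against 12.1% and 13.4% of all genes (25.5% in all). Btg1 alone among them passed in both comparisons with opposite signs. Gadd45g, at −0.14 ± 0.38 with RUNX1-ERt2, and Rhob, at −0.69 ± 0.40, did not pass in the second. Without any single array Btg1 and Gadd45g still passed this test, and Btg1 did not with the mean over its probes (−0.99, adjusted p = 0.268), nor Gadd45g without the slide term (0.199). Rhob did not pass without wt replicate 1 (0.0544), ko replicate 1 (0.0513), ERt2 replicate 1 (0.106) or RUNX1-ERt2 replicate 2 (0.0944), and Fosl2 did not without wt replicate 1 or 2, either ERt2 array or RUNX1-ERt2 replicate 2 (0.0543 to 0.0951) or with a block on replicate number (0.0592). Hsp90aa1 passed still without wt replicate 4, ko replicate 3, ERt2 replicate 2 or RUNX1-ERt2 replicate 2, and its adjusted p was 0.0504 to 0.170 without each of the other 8 arrays and 0.0890 with the block.

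The third comparison set ERt2 against ko, which both lack Runx1. It differs in transplantation, 5-fluorouracil, retrovirus, tamoxifen, the sort for GFP and slide together, which cannot be told apart, and it shares the ko arrays with the first comparison and the ERt2 arrays with the second. Of 35 members 22 were lower with ERt2 and 1 was higher, Gadd45b, against 26% of all genes lower and 30.5% higher (56.5% in all). The median difference was −1.91, against 0.07 for all genes.

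Among the members, the differences were widest for Egr1, Fosb and Fos. Fos, at −1.07 and −2.50 with ERt2 against 2.69 to 5.56 in ko, fell by 6.28 (SE 1.08, limma adjusted p = 0.0011). The difference was −7.35 (SE 1.39) for Fosb, −4.99 (SE 0.68) for Jun and −2.82 (SE 0.54) for Jund, and Atf3, not well above background with ERt2, was at least 6.58-fold lower. The Atf3 call ended with normexp background correction, where the difference was −1.65 (adjusted p = 0.227), and without the slide term (0.0524). Egr1, at −3.11 and −6.10 against 0.47 to 6.58, fell by 8.72 (SE 1.38, adjusted p = 0.00069). It was not well above background on every ERt2 array, so the size of this fall is uncertain. The ERt2 arrays lay below all ko arrays for 17 of the 30 immediate early genes, against 28.5% of all genes, and 24 of the 35 members had a difference below −1, against 15.7%.

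The difference was −5.01 (SE 0.69) for Dusp1, −3.12 (SE 0.61) for Btg2, −3.18 (SE 0.56) for Ppp1r15a and −2.53 (SE 0.56) for Ier3, an early gene that modulates cell survival. Among GADD45 genes, the difference was −1.99 (SE 0.27) for Gadd45a and −0.91 (SE 0.33, adjusted p = 0.0386) for Gadd45g, while Gadd45b, a target of NF-kB and TGF-beta signals, rose by 1.02 ± 0.26 (adjusted p = 0.0095). With a block on replicate number, Gadd45g (adjusted p = 0.0505), Dusp2 (0.0559) and Ier2 (0.0606) did not pass, and without ERt2 replicate 2 neither Gadd45g (0.386), Gadd45b (0.0822), Atf3 (0.0712) nor Hspa1a (0.0930) did. Nr4a1 (−2.49 ± 1.19, adjusted p = 0.103), Myc (0.31 ± 0.14) and Btg1 (−0.06 ± 0.14) did not pass, and the dimmer Btg1 probe differed by −3.03. Hspa1a was at least 3.60-fold lower with ERt2 (adjusted p = 0.0198), and did not pass without ERt2 replicate 1 (0.0779) or with normexp background correction (0.259). That Hspa1a bound uses the mean of the ko arrays (−3.34), which split by slide as given above and spanned 124-fold. Ko replicate 1 was as low as the ERt2 arrays, so the groups overlapped and the bound does not hold array by array. The other 4 heat shock genes did not pass, and the 3 Hspa8 probes differed in direction (−0.23, 0.13 and 0.82).

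Low levels were shared by both transplanted groups for some genes. All 4 transplant arrays lay below all 8 wt and ko arrays for Fos, Maff, Klf2, Klf4 and Dusp1, 5 of 35 members, against 15.7% of all genes, and above them for none, against 13.9%. The share of members that lay below was therefore no larger than that of all genes. Fosb and Egr1 were kept from this count by RUNX1-ERt2 replicate 1, which read 1.60 and 2.23, within the range of the wt and ko arrays.

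**Figure D5:**
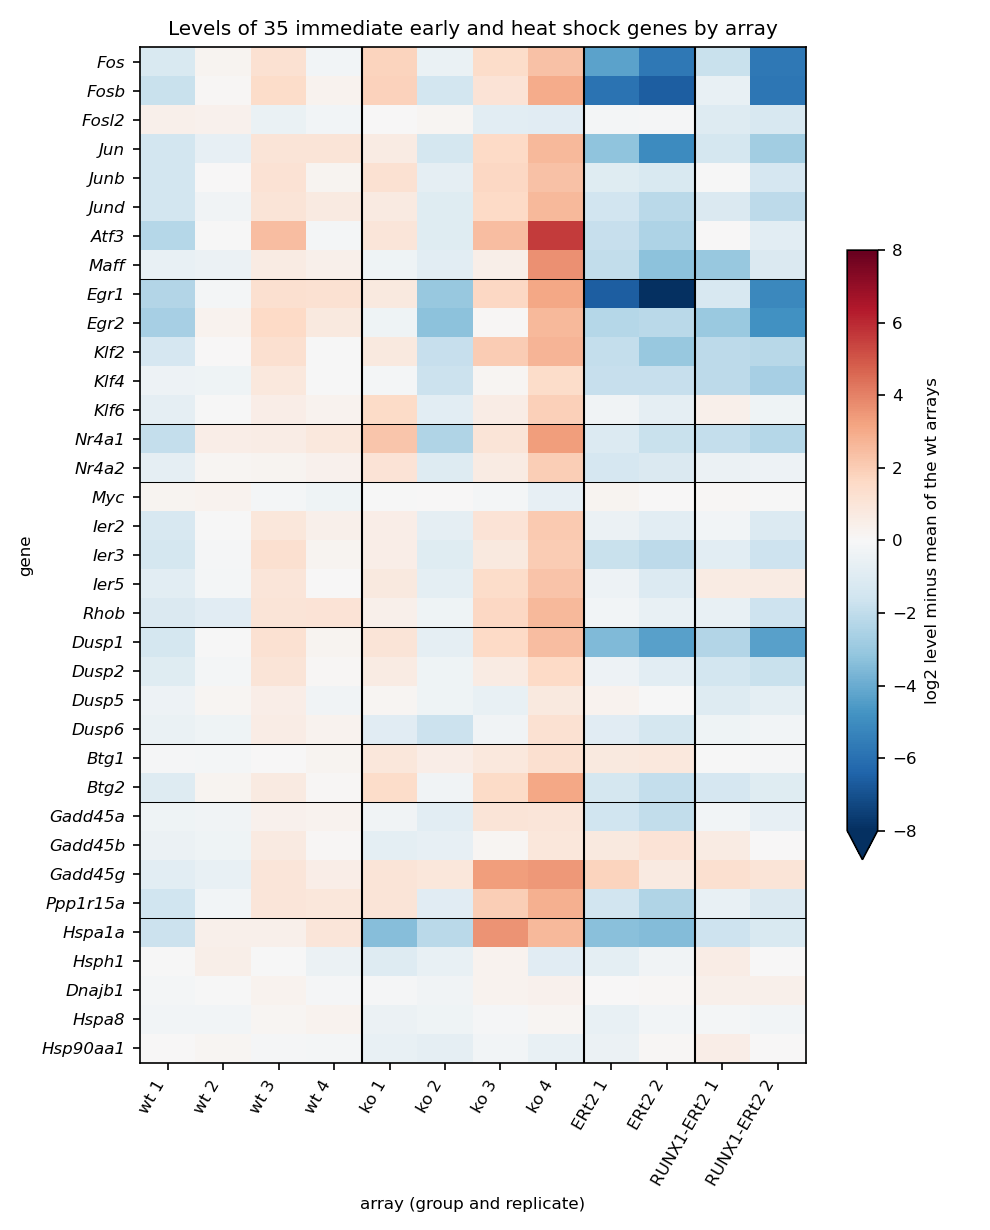
Level of each of 35 members (rows, ordered by role with lines between the roles) on each of the 12 arrays (columns), as log2 difference from the mean of its 4 wt arrays, red above and blue below; values below −8 have the darkest blue. Wt replicate 1 and ko replicate 2 are bluer and ko replicate 4 redder than their groups for most genes, and Fos, Fosb, Egr1 and Dusp1 are lowest with ERt2 and RUNX1-ERt2 replicate 2.

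The count of lower members was 16 without ERt2 replicate 1, 11 without ERt2 replicate 2 and 13 without the slide term. Of the 11, 10 were among the 22, namely Btg2, Dusp1, Egr1, Fos, Fosb, Gadd45a, Ier3, Jun, Jund and Ppp1r15a. In this comparison the difference also ran with the GC content of a probe, from a median of −2.13 below 30% GC over −0.20 at 35% to 40% and 0.34 at 45% to 50% to 0.61 at 55% and above. With each array centred within bins of probe GC, 22 members were lower, with −6.05 for Fos and −8.49 for Egr1. With normexp background correction 18 were lower, and 18 with probes well above background on all 12 arrays. Of all 17778 genes, 4629 were lower as reported, 4023 without the slide term, 5112 with GC centring and 2614 with normexp. With the filter on all 12 arrays, 3493 of 14787 genes were lower.

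Zfp36, whose product tristetraprolin brings AU-rich mRNAs, many of them from immediate early and cytokine genes, to decay, had its only probe in the bin of lowest GC. It read −1.62, 0.07, 1.08 and −0.42 in wt and 1.80, −0.05, 1.61 and 2.72 in ko, with wt replicate 1 and ko replicate 2 again lowest. It read −7.22 and −7.01 with ERt2, not well above background, and −4.89 and −7.25 with RUNX1-ERt2. Zfp36 was at least 104-fold lower with ERt2 than in ko (adjusted p = 2.8e-05 with low-GC probes kept). The 295 probes below 30% GC had a median ERt2 minus ko difference of −2.13, with a 5th percentile of −5.95. Zfp36 did not pass in ko minus wt (1.74 ± 0.65, adjusted p = 0.0819) or in RUNX1-ERt2 minus ERt2 (adjusted p = 0.500).

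Of the wider lists, 18 of 39 further response genes were lower and 4 higher with ERt2 than in ko, 9 to 19 and 1 to 4 without single arrays, and 3 of 25 further chaperones were lower and 7 higher. The lowest count of lower response genes, 9, came without ERt2 replicate 2. Phlda1 fell by 4.19 (SE 0.48) and Socs3 fell by 2.07 (SE 0.51), and Il6 was at least 2.84-fold lower. Of all genes 26% were lower and 30.5% higher. In either direction 56.4% of the further response genes and 40% of the further chaperones were called, against 56.5% of all genes. The first share is near that of all genes and the second below it. Of 25 upstream factors, 9 were higher and 7 lower, 64% of the list against 56.5% of all genes in either direction, which is near that share. Scaled by the array median 1 was lower, and without single arrays 2 to 6 were.

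Marker sums of several cell types moved in the same comparison. The sum of 10 late neutrophil markers was 541 to 671 with ERt2, 21.8 to 282 in ko and 122 to 141 with RUNX1-ERt2, and the sum of 6 measured macrophage markers was 7.46 to 9.73, 0.65 to 1.69 and 0.82 to 1.02, with Cd163 not well above background on any array. The GMP sum was 936 to 1067 with ERt2 and 434 to 564 in ko, the erythroid sum 114 to 199.9 and 31.9 to 89.3, and the monocyte sum 104.9 to 129.6 and 67.7 to 87.8. Of 7 B cell markers 4 were not well above background on any ERt2 array, and 4 were not on any RUNX1-ERt2 array, so the B cell sums rest on the others. With RUNX1-ERt2 the late neutrophil and macrophage sums lay within the range of ko, the erythroid sum (184 to 243) and the B cell sum (13.6 to 27.7, against 4.27 to 5.89 in ko) lay above it, and the monocyte sum (34.0 to 42.7) lay below it. The T and NK cell sum was 36.2 to 48.8 with ERt2, 14.9 to 15.9 with RUNX1-ERt2 and 8.42 to 13.2 in ko. Of its 6 markers, however, 1 was called higher and 3 lower with ERt2 than in ko, with a median difference of −0.95. Of 7 monocyte markers, 2 were called higher and 2 lower with ERt2 than in ko, with a median difference of 0.82. The part of cell composition in these results was not tested.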

How the data were processed

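Total RNA from 12 GMP samples was labelled with Cy3 and hybridised to Agilent arrays with 60-base probes. Per the file headers, Feature Extraction 10.7.3.1 made the deposited processed intensity, background-subtracted on each array, from the spot and background intensities. The submitters' processing notes name version 9.1. The series matrix deposited by the authors holds the processed signal over the array median on a linear scale, and log2 was taken here. Its wt and ko columns match another replicate of the same group.

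The log2 processed intensity minus the 75th percentile of its array was fitted with limma 3.58.1 (R 4.3.3; lmFit and eBayes) for 4 group means and a slide term, with p adjusted over 17778 genes (Benjamini-Hochberg, threshold 0.05). A gene was represented by its brightest probe of at least 30% GC, provided all arrays of some group measured that probe well above background. Errors are SE unless marked SD. A group not well above background gives a bound ("at least"), taken against the lowest signal that its arrays measured above background. The script was tested on simulated data, where 74% of genes changed by 1 (log2) were recovered for ko against wt and 57% for RUNX1-ERt2 against ERt2. Those genes were drawn from all genes tested, with noise independent between genes. Immediate early genes had wider ranges (median 2.07 in wt and 3.05 in ko, against 0.49 and 0.51 for all genes) and moved together. The recovered shares therefore do not apply to them.

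The members and lists were chosen with earlier results of these data known. Genes were named as members past the threshold in a Runx1 comparison, fixed representatives of each role, and up to 3 genes with the largest change past the threshold in each wider list, and others were chosen after their values were seen. Same-numbered wt and ko arrays deviated together (correlations 0.37, 0.35, 0.18 and 0.67), although wt replicate 2 correlated best with ko replicate 1 and wt replicate 3 with ko replicate 4. The reported values come from the fit without pairing, and values with the replicate number as a block are given where they change a call. Alternatives covered background correction, scaling, filters, probe choice, slide term, block, samples fitted and each array left out.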

Additional observations from a re-analysis of the deposited data

Results flagged for a closer look

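Nr4a1 was low on wt replicate 1, at −0.97, against 1.48 to 1.80 on the other 3 wt arrays, and Nr4a2 likewise, at −1.99 against −1.09 to −0.93. Each gap to the nearest array took up more of the group's range (0.886 and 0.849) than Dixon's 95% critical value for 4 samples. These were 2 of 70 groups examined, and chance gives about 1 in 20. The ko minus wt difference of Hspa1a ran in opposite directions on the 2 slides, and the difference between them, 4.54, did not pass over all genes (limma adjusted p = 0.285). Each of these slides held 2 arrays of each group, and not every ko array measured Hspa1a well above background.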

How the results depend on the processing

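In ko against wt, the number of members lower, 1, was 0 with the array median, with series matrix values, with no filter on dim probes, without the slide term and with the replicate block, and 2 with probes well above background on all 12 arrays or only the groups compared. Without single arrays it was 0 to 4, and the number higher 2 to 9. With RUNX1-ERt2 against ERt2, 2 members were higher and 1 lower with the mean over all probes of a gene, 0 and 1 without the slide term, and 3 were higher with only the groups compared (Gadd45a, Hspa1a and Nr4a2). Without single arrays 0 to 3 were higher, and a block on crossed replicate numbers, added after seeing a correlation of −0.19 between same-numbered arrays, gave 1 higher and 2 lower. In ERt2 against ko, the number higher was 3 with the array median or series matrix values, 2 with the replicate block or with centring by probe GC (added after seeing the data) and 0 without the slide term, where 13 were lower. Without single arrays 0 to 2 were higher and 11 to 24 lower. For the difference between the effect of RUNX1-ERt2 and that of deletion (alternatives added after seeing the data), 1 member higher became 0 with normexp background correction, the array median, series matrix values, no filter on dim probes or the replicate block, and 2 with probes well above background on all 12 arrays. The 4 lower became 2 with normexp or no filter and 1 without the slide term, and single arrays left out gave 0 to 3 higher and 2 to 5 lower. The causes were not tested.

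Directions turned for members that did not pass. Without single arrays the ko minus wt difference ran from −0.045 to 1.48 for Egr1 and from −0.49 to 1.04 for Hspa1a, and the RUNX1-ERt2 minus ERt2 difference from −0.43 to 1.60 for Dusp1 and from −0.72 to 3.24 for Fos. Hspa8 differed by 0.24 between ERt2 and ko with the mean over all probes. The replicate block ended the calls given with it in the results and added Myc as higher in ERt2 minus ko, and changed no other call of a member in the 3 comparisons or in the difference between effects. The array median moved the median of all genes in ERt2 minus ko from 0.07 to 0.26 and the calls over all genes from 5416 higher and 4629 lower to 6727 and 3596, and in ko minus wt from 2048 and 2437 to 1853 and 1364. Levels near background and 2 arrays per transplanted group limit the precision.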
